A study of Mus musculus with 6 samples.

Results

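Adipogenic and lipid metabolism genes were followed in fibroadipogenic progenitors (FAPs), the mesenchymal cells between muscle fibres that can become fibroblasts or adipocytes. The set was a list of 38 genes, taken by name, that covers adipogenic regulators and lipid uptake, synthesis, storage and secreted products, out of 33276 genes counted. All 38 had a row in the table, Pref1 under its current symbol Dlk1, and 37 passed the filter on low counts. Fabp3 did not.

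Both groups came from mice labelled MCAO (middle cerebral artery occlusion, a model of stroke). One group held 3 libraries of FAPs from peripheral blood, called circulating here, and the other held 3 libraries of FAPs from muscle. The labels give no genotype, background strain, sex, age, time after occlusion, sorting markers or pooling of animals, and no group without occlusion was analysed. The comparison asks which lipid genes differ between FAPs in blood and those in muscle.

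Totals ran from 5522193 to 13813329 reads in the circulating and from 17532558 to 23424039 in the muscle libraries, and 18S ribosomal RNA held 42.9% to 60.1% and 27.8% to 32.3% of them. In counts per 1000000 (CPM) of the scaled library, 11 FAP markers (Pdgfra, Cd34, Ly6a, Dcn and others) summed to 27497 to 29471 in circulating and 57705 to 68766 in muscle libraries, with none at 0. Gsn made up 51.6% and 53.6% of these sums, and of the 11 genes 6 were below muscle in every circulating library, Dpp4 was above, and 4 overlapped (Cd34, Ly6a, Pi16 and Fbn1). Monocyte and macrophage markers, 11 genes, summed to 58.5 to 218 CPM in circulating and 20.6 to 34.1 CPM in muscle libraries, without overlap. Pericyte and smooth muscle markers, 8 genes, summed to 50.3 to 61.2 and 73.7 to 168 CPM, also without overlap. Only 2 of these 8 genes (Rgs5 and Cspg4) were below muscle in every circulating library, and 6 overlapped. Of those that overlapped, Acta2, Myh11 and Tagln had higher means in circulating libraries (Myh11 13.2 against 3.66 CPM). Notch3, Mcam and Kcnj8 had lower means there. The 8 adipocyte markers, 3 of which are in the set (Adipoq, Lep and Plin1), summed to only 6.57 to 7.14 CPM in circulating and 3.57 to 5.03 CPM in muscle libraries, without overlap. Of the 8 genes 2 were above muscle in every circulating library and 6 overlapped. Among all tested genes under 2 CPM, 25.9% lay above muscle in this way. The background level of silent genes, given below, was also higher in circulating libraries. Endothelial, platelet, red cell, muscle fibre, satellite cell and Schwann marker sums overlapped between the groups. In such bulk libraries, fewer cells of a type and less RNA per cell cannot be told apart.

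Adipogenesis is set in motion by the early factors Cebpb and Cebpd, which induce Pparg and Cebpa, and these switch on the genes of the mature fat cell. Pref1 holds cells in the preadipocyte state. Fatty acids and sterols are made under the control of the SREBP factors encoded by Srebf1 and Srebf2, and lipid that is taken up or made is stored as triglyceride in droplets coated by perilipins. In muscle, FAPs are the source of the fat that accumulates after some injuries.

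Of the 37 genes tested with edgeR, 1 was lower in circulating FAPs past an adjusted p of 0.05 (Lpl) and 0 were higher. Over all 20248 genes tested, 0.104% were called lower and 0.00494% higher. At an unadjusted p under 0.05, 7 of the 37 genes were lower and 1 was higher, beside 9.64% and 9.71% of all genes. DESeq2 called 5 lower (Pref1, Lpl, Apod, Scd1 and Hmgcs1) and 0 higher, beside 5.32% and 1.01% of all genes, and limma-voom called 1 lower and 0 higher, beside 0.44% and 0.00988%. The log2 fold change, circulating minus muscle, was negative for 28 of the 37 genes (75.7%), beside 45.5% of all tested genes. The median was -0.80, against 0.15 for all tested genes. Scaling on genes of at least 20 CPM moved the median of all genes by 0.70, to 0.85, and that of the lipid genes to -0.05. With that scaling the sign turned for Cebpb, Lrp1, Insig1, Sqle, Plin1, Plin3, Dgat2, Lipe and Pnpla2.

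**Figure D1:**
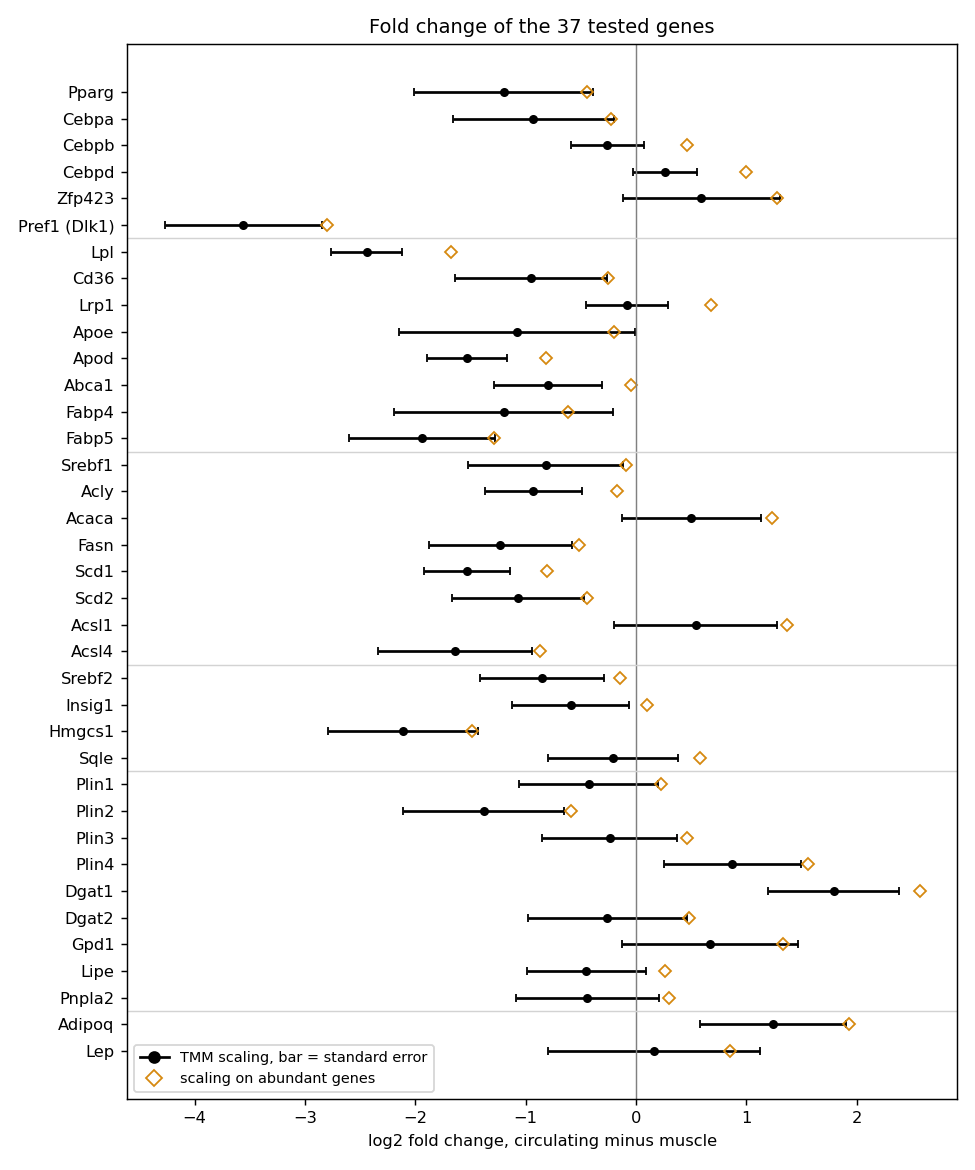
Log2 fold change (circulating minus muscle) of the 37 tested genes, in the order of their roles; black points and bars are the edgeR estimate with TMM scaling and its standard error, and open diamonds the estimate with scaling on abundant genes. Pref1 at -3.56 and Lpl at -2.44 lie farthest to the left, Dgat1 at 1.79 farthest to the right, and each diamond lies to the right of its point.

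In 9 genes every circulating library lay below every muscle library (Pref1, Lpl, Apod, Abca1, Fabp5, Fasn, Scd1, Acsl4 and Hmgcs1), which is 24.3% of the 37 beside 11.4% of all tested genes. In 2 genes (Dgat1 and Adipoq) every circulating library lay above, beside 16.2% of all tested genes. Abundant genes as a whole tended to be lower in circulating libraries: at a mean of at least 20 CPM, 28.8% of 4736 genes lay below without overlap, and so did 7 of the 22 lipid genes of that abundance (31.8%). Their median log2 fold change was -0.89 against -0.65 for all genes of that abundance. The log2 fold change was negative in 19 of the 22 (86.4%), beside 78.3% of all genes of that abundance. Of the 22, 1 lay above muscle without overlap (4.55%), beside 1.67% of all genes of that abundance. The share of lipid genes below muscle is thus near the background once abundance is taken into account.

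**Figure D2:**
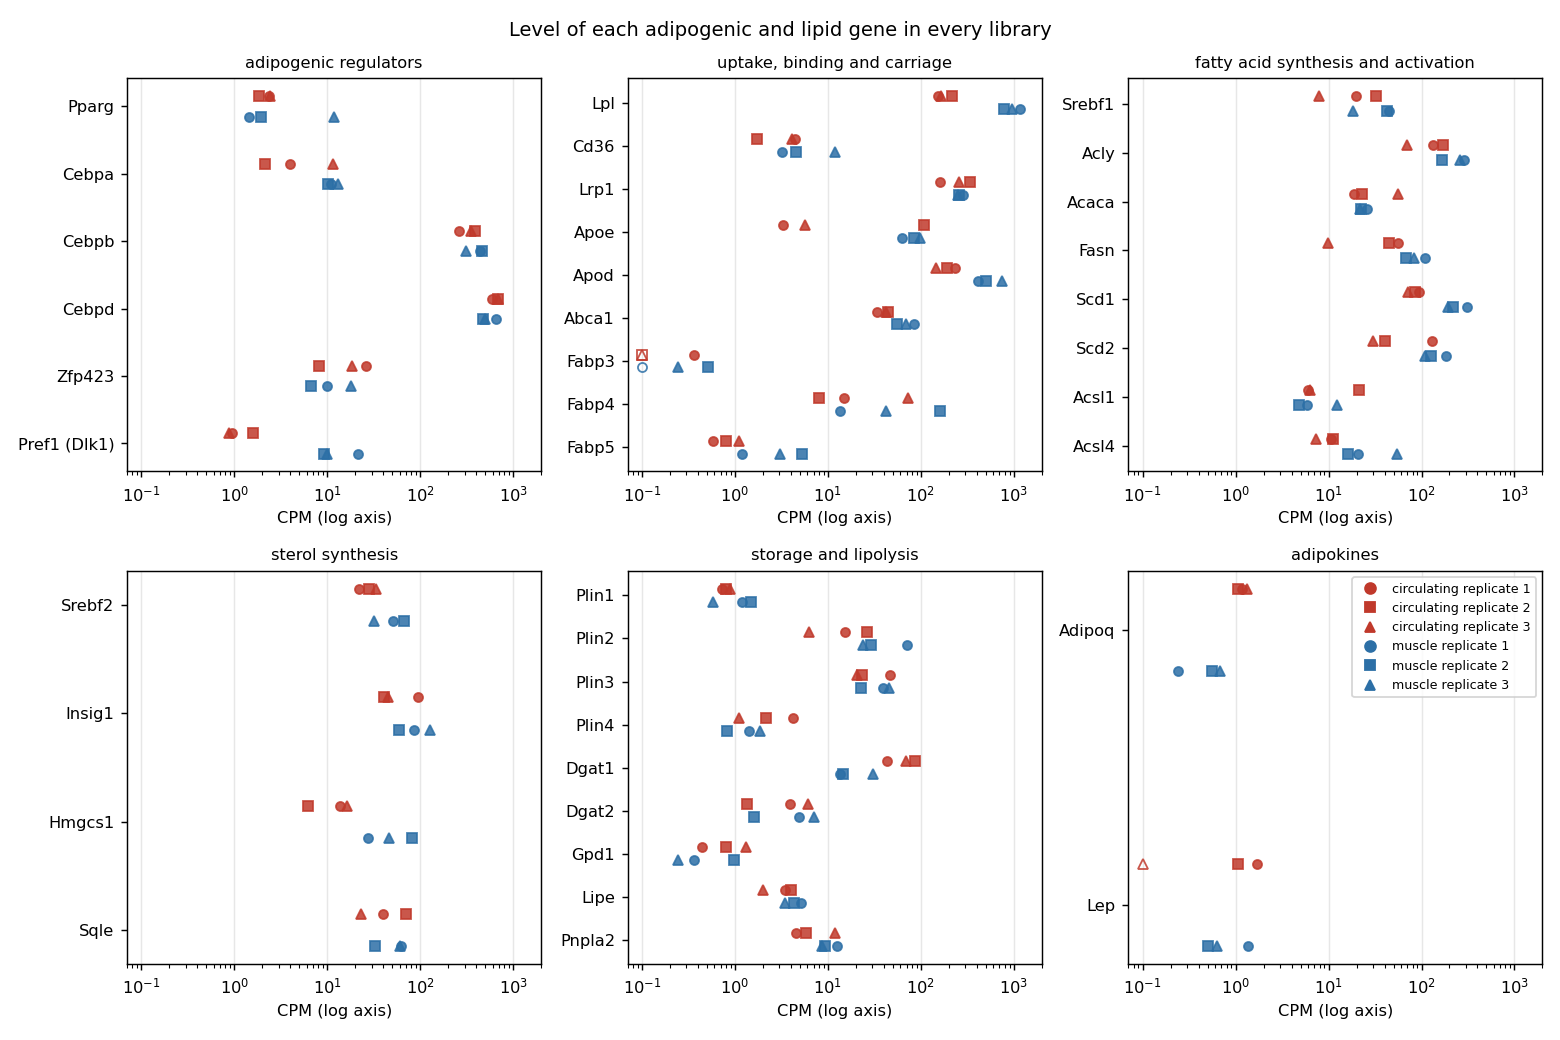
CPM on a log axis of each of the 38 genes in each library, by role; circulating libraries are red, muscle libraries blue, the marker shape gives the replicate number, and open symbols at 0.1 mark libraries with 0 reads. Circulating libraries lie apart on the left for Pref1, Lpl, Apod and Scd1 and apart on the right for Dgat1.

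Among the sequences, the promoters of 3 SREBP-controlled enzymes or regulators are shown, since the results below set a gene of sterol synthesis (Hmgcs1) and a gene of fatty acid synthesis (Fasn), both lower in every circulating library, beside a sterol sensor gene that overlapped between the groups (Insig1). Each is the RefSeq window (build GRCm38.p6) from 250 bases before to 50 bases after the annotated start, read 5′ to 3′ on the gene's strand: chr13:119690101-119690400, plus strand, for Hmgcs1, chr11:120824498-120824797, minus strand, for Fasn, and chr5:28071162-28071461, plus strand, for Insig1. Capitals mark the sterol regulatory element searched as TCACNCCAC and the NF-Y box CCAAT, on either strand.
Hmgcs1: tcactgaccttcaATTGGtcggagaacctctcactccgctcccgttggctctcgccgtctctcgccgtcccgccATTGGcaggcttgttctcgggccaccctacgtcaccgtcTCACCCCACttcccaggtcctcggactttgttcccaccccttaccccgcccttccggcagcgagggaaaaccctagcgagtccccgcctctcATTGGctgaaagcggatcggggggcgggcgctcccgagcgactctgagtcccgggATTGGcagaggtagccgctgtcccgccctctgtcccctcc
Fasn: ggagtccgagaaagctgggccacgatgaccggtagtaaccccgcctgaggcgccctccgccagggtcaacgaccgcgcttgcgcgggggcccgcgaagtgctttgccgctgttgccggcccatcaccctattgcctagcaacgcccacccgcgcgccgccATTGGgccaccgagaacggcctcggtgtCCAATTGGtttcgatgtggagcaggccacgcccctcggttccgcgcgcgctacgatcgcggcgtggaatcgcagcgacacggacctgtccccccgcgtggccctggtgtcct
Insig1: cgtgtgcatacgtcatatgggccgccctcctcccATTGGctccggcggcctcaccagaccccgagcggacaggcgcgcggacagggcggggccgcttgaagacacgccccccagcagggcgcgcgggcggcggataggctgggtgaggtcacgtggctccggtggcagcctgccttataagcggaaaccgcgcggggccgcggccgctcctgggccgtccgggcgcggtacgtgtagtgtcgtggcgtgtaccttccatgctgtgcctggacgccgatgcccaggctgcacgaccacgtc
The Hmgcs1 window held 1 sterol element and 4 NF-Y boxes, the Fasn window 3 NF-Y boxes, of which a pair overlap on opposite strands, and the Insig1 window 1 NF-Y box. Of all 32851 windows, 1.24% held the sterol element and 37.4% the NF-Y box. Windows were found for 28 of the 38 genes, 37 windows in all, of which 2 (5.41%) held the sterol element and 15 (40.5%) the NF-Y box, and no base belonged to both motifs. A match describes these letters only.

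Among the adipogenic regulators, the early factors were abundant in both groups and Pref1 stood apart. Cebpd was at 594, 680.3 and 679 CPM in circulating replicates 1, 2 and 3 and at 659.8, 474 and 496 CPM in muscle replicates 1, 2 and 3 (log2 fold change 0.26 ± 0.29 (SE), adjusted p = 0.611 in edgeR). Cebpb was at 259, 387 and 355 CPM against 436, 458 and 307 CPM (-0.26 ± 0.33, adjusted p = 0.663). Both overlapped between the groups. Within a library, where scaling cancels, there were 1.76 to 2.29 reads of Cebpd for each read of Cebpb in circulating and 1.04 to 1.62 in muscle libraries, without overlap.

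Pref1 (Dlk1), the transmembrane inhibitor of adipocyte differentiation, was at 0.949, 1.60 and 0.878 CPM in circulating and at 21.3, 9.24 and 9.83 CPM in muscle libraries, from 8 to 13 and 182 to 356 reads. The groups were far apart, with means of 1.14 ± 0.396 and 13.4 ± 6.78 CPM (SD, n = 3), an 11.8-fold difference. The log2 fold change of -3.56 ± 0.71 passed with DESeq2 (adjusted p = 1.39e-05) but missed the threshold in edgeR (adjusted p = 0.0909). It ran from -3.96 to -2.80 over all settings tried.

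The remaining regulators were at lower levels than Cebpb and Cebpd. Pparg, the master regulator of fat cells, was at 2.34, 1.86 and 2.42 CPM in circulating and at 1.43, 1.93 and 11.9 CPM in muscle libraries, so that muscle replicate 3 alone was high. Its log2 fold change of -1.20 ± 0.81 became 0.34 without that library. Muscle replicate 3 also had the highest muscle sums of endothelial (148 CPM) and of pericyte and smooth muscle markers (168 CPM). It held the highest muscle value of 4 of the 10 and 5 of the 8 genes. Its adipocyte sum was the lowest, 3.57 CPM. The part of other cells in the Pparg values was not tested. Cebpa was at 2.13 to 11.6 against 10.1 to 12.9 CPM, and Zfp423, a zinc finger factor of preadipocyte commitment, at 8.12 to 25.9 against 6.75 to 17.9 CPM. Neither passed (adjusted p = 0.475 and 0.642).

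Genes of lipid uptake and carriage had negative log2 fold changes in 8 of 8 tested. The share was 45.5% of all tested genes and 78.3% of those of at least 20 CPM. The median of the 8 genes was -1.14. On the scaling by abundant genes the median was -0.44 and Lrp1 turned positive. Lpl, the lipase that frees fatty acids from circulating lipoproteins, fell from 1165, 774 and 959 CPM in muscle to 151, 217 and 166 CPM in circulating libraries. That is 966 ± 196 against 178 ± 34.9 CPM, 5.42-fold, with a log2 fold change of -2.44 ± 0.32 (adjusted p = 0.0341 in edgeR). The lowest muscle library was well above the highest circulating one. The call was lost with scaling on abundant genes (-1.68, adjusted p = 0.0882), with upper quartile scaling (-1.73, adjusted p = 0.0854) and when any library other than circulating replicate 1 was left out (adjusted p = 0.0775 to 0.202), while the estimate stayed between -2.69 and -1.68.

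Apod, a lipocalin that carries small lipids, was at 232, 191 and 147 CPM in circulating and 414, 499 and 738 CPM in muscle libraries. The groups did not overlap, and the log2 fold change of -1.53 ± 0.36 passed with DESeq2 (adjusted p = 0.0349) but not edgeR (adjusted p = 0.127). Reads of Lpl for each read of Apod were 0.649, 1.14 and 1.13 in circulating and 2.81, 1.55 and 1.30 in muscle libraries, so the ratio was lower in every circulating library than in every muscle library. Abca1, which exports cholesterol from cells, was at 33.4, 44.6 and 42.1 CPM against 85.1, 55.2 and 68.8 CPM (-0.80 ± 0.49, adjusted p = 0.371 in edgeR), and -0.05 when abundant genes set the scale. Lrp1, an endocytic receptor for apolipoprotein E and other ligands, was at 162 to 335 against 252 to 284 CPM and overlapped (-0.08 ± 0.37).

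Apoe, the apolipoprotein through which lipid particles bind their receptors, was uneven among the circulating libraries. It was at 3.28 and 5.71 CPM in circulating replicates 1 and 3, at 107 CPM in circulating replicate 2, and at 62.0, 84.0 and 98.0 CPM in muscle replicates 1, 2 and 3. A single circulating library was thus above the whole muscle range and the other two were far below. The log2 fold change was -1.08 ± 1.07 (adjusted p = 0.571 in edgeR) and -4.26 without circulating replicate 2 (adjusted p = 0.0959). That library also had the highest sum of monocyte and macrophage markers, 218 CPM against 58.5 and 113 CPM in circulating replicates 1 and 3, and held the highest circulating value of 7 of the 11 markers. Ptprc, Cd68 and Cd14 were highest in circulating replicate 3 and Mrc1 in circulating replicate 1. Tyrobp was at 23.2 CPM in circulating replicate 2 against 0.657 and 0.659 CPM, while Cd14 was at 42.7 CPM there and at 43.6 CPM in circulating replicate 3. Muscle libraries held Apoe at 62.0 to 98.0 CPM with sums of 20.6 to 34.1 CPM, and the part of these cells in the Apoe values was not tested.

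The fatty acid binding proteins are small carriers of fatty acids inside the cell. Fabp4, the form of fat cells, macrophages and capillary endothelium, was at 14.7, 7.98 and 71.8 CPM in circulating and at 13.5, 162 and 42.6 CPM in muscle libraries. Muscle replicate 2 was the highest and circulating replicate 3 the second highest, and the log2 fold change of -1.20 ± 0.99 became 0.11 without muscle replicate 2. The summed endothelial markers, 10 genes, were 98.4 CPM in muscle replicate 2 and 109 and 148 CPM in muscle replicates 1 and 3. Tek alone made up 47.9% of these sums. It was at 34.5 CPM in muscle replicate 2 and at 86.4 and 49.4 CPM in muscle replicates 1 and 3. Muscle replicate 2 held the highest muscle value of 5 of the 10, among them Gpihbp1, which anchors Lpl to capillaries (11.9 CPM against 0.478 and 7.09 CPM), while Pecam1, Kdr, Tie1 and Egfl7 were highest in muscle replicate 3 and Tek in muscle replicate 1. Among the circulating libraries, replicate 3 held the highest value of 6 of the 10 markers, and replicates 1 and 2 of 2 each. The part of endothelial cells in the Fabp4 values was not tested. Fabp5 was at 0.584 to 1.10 against 1.19 to 5.28 CPM, without overlap and with adjusted p = 0.189 in edgeR. Fabp3, the form of heart and muscle, had 0 to 10 reads in a library. Cd36, a fatty acid translocase, was at 1.73 to 4.38 against 3.23 to 12 CPM (adjusted p = 0.444).

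**Figure D3:**
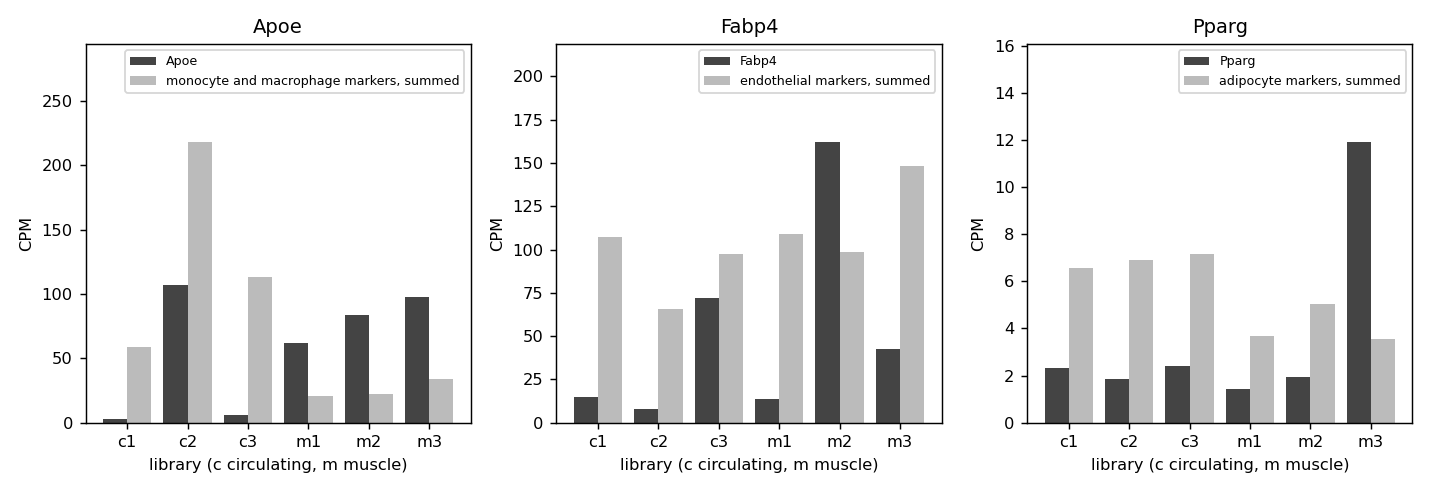
CPM (linear axes from 0) of Apoe, Fabp4 and Pparg in each library, as dark bars, beside the summed CPM of a marker list, as light bars; c1 to c3 are circulating and m1 to m3 muscle libraries. Apoe is high in c2 alone among the circulating libraries, Fabp4 is highest in m2 and Pparg in m3.

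Genes of fatty acid synthesis and activation were negative in 6 of 8, beside 45.5% of all tested genes and 78.3% of those of at least 20 CPM. The median of the 8 genes, -1.0, became -0.30 when abundant genes set the scale. Scd1, the desaturase that makes oleate, was at 93.5, 85.0 and 71.4 CPM in circulating and at 310.2, 218 and 193 CPM in muscle libraries. The groups did not overlap, and -1.53 ± 0.39 passed with DESeq2 (adjusted p = 0.0275) but not edgeR (adjusted p = 0.143). Its close relative Scd2 was at 130, 40.2 and 29.9 CPM against 185, 127 and 108 CPM, where circulating replicate 1 reached into the muscle range. Muscle libraries had 1.68 to 1.78 reads of Scd1 for each read of Scd2, while the 3 circulating libraries had 0.719, 2.12 and 2.39. Reads shared between the related Scd genes may have been split or dropped in the counting, so these ratios are uncertain.

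Acly, which supplies acetyl-CoA in the cytosol, was at 134, 170.2 and 69.7 CPM in circulating and at 286, 166 and 262 CPM in muscle libraries, which overlap (-0.93 ± 0.44, adjusted p = 0.276 in edgeR). Fasn, the fatty acid synthase, was at 55.9, 44.8 and 9.88 CPM against 109.9, 67.5 and 82.2 CPM (-1.23 ± 0.65, adjusted p = 0.313). All circulating libraries lay below muscle, and circulating replicate 3 was far below the other two. Acaca, the carboxylase that acts just before Fasn, went the other way in that library, at 18.8, 22.8 and 56.5 CPM against 25.6, 22.1 and 21.8 CPM. Circulating replicate 3 thus had 0.175 reads of Fasn for each read of Acaca, against 2.98 and 1.97 in circulating replicates 1 and 2 and 3.06 to 4.30 in muscle libraries. The Acaca log2 fold change of 0.50 became -0.27 without that library.

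Srebf1, the lipogenic SREBP gene, was also lowest in circulating replicate 3, at 7.80 CPM against 19.8 and 32.2 CPM in the others and 18.1 to 45.0 CPM in muscle (adjusted p = 0.510 in edgeR). Of the ligases that activate fatty acids, Acsl4, which prefers polyunsaturated chains, was at 10.7, 11.3 and 7.25 CPM in circulating and 20.6, 16.2 and 54.2 CPM in muscle libraries. It did not overlap (-1.64 ± 0.70, adjusted p = 0.239), with muscle replicate 3 far above the others. Acsl1 was at 5.98 to 21 against 4.82 to 12.2 CPM, and its log2 fold change of 0.54 became -0.40 without circulating replicate 2.

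In sterol synthesis, 4 of 4 log2 fold changes were negative, beside 45.5% of all tested genes and 78.3% of those of at least 20 CPM. The median of -0.72 became -0.03, with Insig1 and Sqle positive, when abundant genes set the scale. Hmgcs1, which makes the HMG-CoA of the mevalonate pathway, was at 13.6, 6.12 and 16.3 CPM in circulating and 27.7, 81.1 and 46.4 CPM in muscle libraries. The groups did not overlap, and -2.11 ± 0.68 passed with DESeq2 (adjusted p = 0.0176) but not edgeR (adjusted p = 0.179). Of the promoters shown above, only its window held the sterol element in the exact letters searched. Elements that depart from these letters were not searched. Acsl1, the other gene with a match among the 28 that had a window, overlapped between the groups (log2 fold change 0.54). Any relation of the element to these levels was not tested. Insig1, which retains SREBP in the endoplasmic reticulum when sterols are plentiful, was at 94.8, 40.9 and 44.6 CPM against 85.4, 59.6 and 127 CPM, and Sqle, the squalene epoxidase, at 39.8, 70.1 and 23.2 CPM against 61.5, 32.7 and 59.9 CPM. Both overlapped, with adjusted p = 0.530 and 0.85 in edgeR. Srebf2, the sterol SREBP gene, was at 21.8 to 33.3 against 31.7 to 67.2 CPM (-0.85 ± 0.56, adjusted p = 0.403).

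Storage and lipolysis genes held the largest positive log2 fold change of the set. Dgat1, which joins the last fatty acid to a diglyceride to form triglyceride, was at 43.5, 87.3 and 69.6 CPM in circulating and at 13.4, 14.5 and 30.2 CPM in muscle libraries. Every circulating library was above every muscle library, 66.8 ± 22.0 against 19.4 ± 9.37 CPM (SD, n = 3), 3.45-fold. The log2 fold change of 1.79 ± 0.59 did not pass in edgeR (adjusted p = 0.184) or DESeq2 (adjusted p = 0.0646), and ran from 1.46 to 2.57 over all settings tried. Dgat2, the second enzyme of that step, was scarce and overlapped, at 1.33 to 6.04 against 1.62 to 7.09 CPM. Within a library there were 11, 65.6 and 11.5 reads of Dgat1 for each read of Dgat2 in circulating and 2.78, 8.91 and 4.26 in muscle libraries.

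Of the droplet coat proteins, Plin3, the broadly expressed form, was at 46.8, 23.2 and 20.6 CPM in circulating and 39.5, 22.6 and 45.2 CPM in muscle libraries (adjusted p = 0.833 in edgeR). Plin2, the droplet coat of most cells that are not fat cells, was at 15.1, 26.4 and 6.26 CPM against 71.7, 28.8 and 23.7 CPM (-1.38 ± 0.73, adjusted p = 0.317), and muscle replicate 1 was the highest. Plin1 and Plin4, of mature fat cells, reached at most 1.47 and 4.23 CPM in any library. The lipases Pnpla2 and Lipe, which start triglyceride and diglyceride breakdown, were at 4.52 to 12 against 8.56 to 12.4 CPM and at 1.98 to 3.99 against 3.47 to 5.08 CPM. Gpd1, which makes glycerol 3-phosphate for triglyceride, had 5 to 19 reads in a library. None of these passed in edgeR, and DESeq2 gave Plin1 and Gpd1 no adjusted p and called none of the others.

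The adipokines were the scarcest group. Adipoq, which encodes adiponectin, was at 1.17, 1.06 and 1.32 CPM in circulating and at 0.239, 0.558 and 0.685 CPM in muscle libraries, from 4 to 16 reads each. The groups did not overlap and the difference did not pass (1.24 ± 0.66, adjusted p = 0.319 in edgeR). Lep, which encodes leptin, was at 1.68, 1.06 and 0 CPM against 1.37, 0.508 and 0.636 CPM (adjusted p = 0.932 in edgeR). DESeq2 gave neither an adjusted p.

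Low values were set beside a background. In each library this was the median, over 556 vomeronasal, taste and trace amine receptor genes that are silent outside sensory tissue, of reads per kilobase of exon and per 1000000 reads without 18S. It was 0.825, 1.16 and 0.878 in circulating and 0.331, 0.409 and 0.273 in muscle libraries, so the groups did not overlap. In all 6 libraries 6 genes stayed under 3 times this level: Fabp3, Plin1, Plin4, Gpd1, Adipoq and Lep. Adipoq was at 1.61 to 2.34 times the background in circulating and 0.665 to 2.34 times in muscle libraries, and on this scale the groups overlapped. In circulating libraries 11 genes stayed under 3 times the background, the same 6 with Pparg, Pref1, Cd36, Fabp5 and Lipe. Pref1 was at 0.353 to 0.589 times the background there and at 6.21 to 14.5 times in muscle libraries.

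On the same scale 12 genes exceeded 10 times the background in every library: Cebpb, Cebpd, Lpl, Lrp1, Apod, Acly, Scd1, Scd2, Insig1, Sqle, Plin3 and Dgat1. Per kilobase and 1000000 reads without 18S, the mean level of Cebpb was 477 in circulating and 369 in muscle, that of Cebpd 368 and 197, that of Apod 153 and 292 and that of Lpl 36.5 and 125. Dgat1 had a mean level of 47.6 in circulating and 8.57 in muscle on that scale, whose denominator differs from that of CPM. Divided by the background of its library, Dgat1 was at 30.0 to 59.6 in circulating and 16.9 to 46.6 in muscle libraries, and so overlapped. Divided in the same way, Cebpb, Cebpd, Apod and Lpl were lower in every circulating library than in every muscle library. The direction for Cebpb and Cebpd thus depended on the scale. In CPM the mean of Cebpb was lower in circulating libraries and that of Cebpd higher, and both overlapped.

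**Figure D4:**
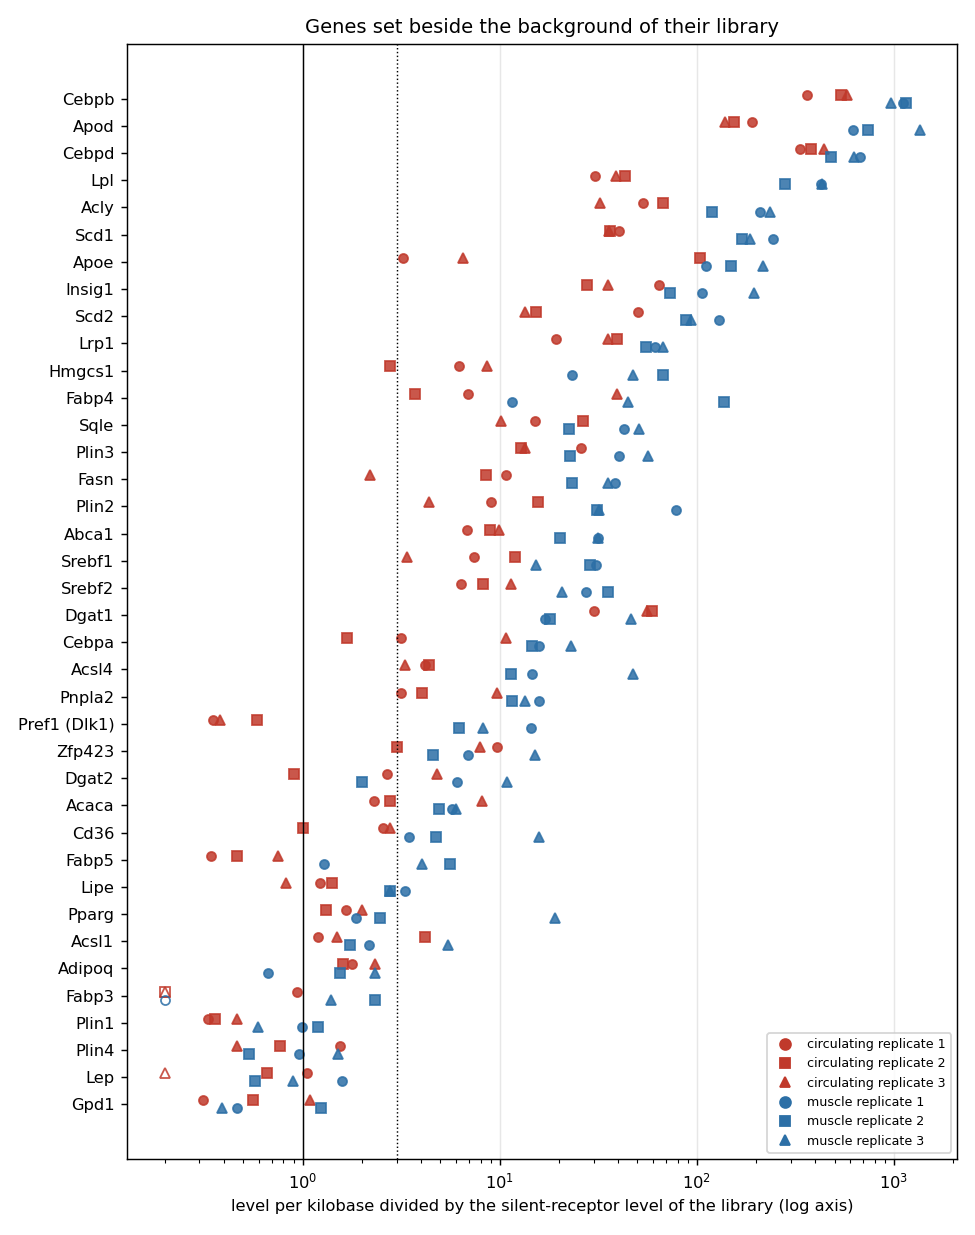
Level per kilobase of each of the 38 genes divided by the silent-receptor level of the same library, on a log axis, ordered by the median of the muscle libraries; the solid line is the background, the dotted line 3 times it, and open symbols at 0.2 mark 0 reads. Pref1 lies left of the solid line in the circulating libraries (0.353 to 0.589) and right of the dotted line in the muscle libraries (6.21 to 14.5).

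Libraries of one group differed more for circulating FAPs. For the 22 lipid genes of at least 20 CPM, the median coefficient of variation was 42.3% in circulating and 29.5% in muscle, beside 52.0% and 34.6% for all 4736 genes of that abundance. Circulating replicate 2 held the highest circulating value in 12 of the 22 lipid genes and in 1133 of the 4736 genes.

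Another 107 genes of the same pathways were read from the same fit, of which 99 were tested. None passed in edgeR in either direction, and 14 were lower and 2 higher at an unadjusted p under 0.05, beside 9.64% and 9.71% of all genes. DESeq2 called 10 lower and 0 higher, beside 5.32% and 1.01% of all genes, and limma-voom 2 lower and 0 higher, beside 0.44% and 0.00988%. Their median log2 fold change was -0.57, and 0.16 when abundant genes set the scale. At a mean of at least 20 CPM, 14 of 50 lay below muscle without overlap (28.0%) and 1 above (2.0%), beside 28.8% and 1.67% of all genes of that abundance.

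The 10 genes called by DESeq2 were named after their values were seen, and fell unevenly over the roles. Storage and lipolysis held 4 (of 16 tested), fatty acid synthesis and activation 2 (of 16) and sterol synthesis 0 (of 22). Each remaining role held 1. Hilpda, a droplet protein that inhibits lipolysis, was at 0.803, 0.266 and 2.85 CPM in circulating and at 31.0, 19.8 and 15.8 CPM in muscle libraries (-4.08 ± 0.93, adjusted p = 0.125 in edgeR and 3.73e-05 with DESeq2). G0s2, an inhibitor of Pnpla2, was at 14.0, 0.399 and 1.54 CPM against 38, 31.5 and 29.7 CPM. Klf5, an adipogenic factor downstream of Cebpb and Cebpd, was at 5.47, 3.73 and 2.64 CPM against 74.1, 23.5 and 45.6 CPM (-3.59 ± 0.72, adjusted p = 0.0909 in edgeR and 5.40e-06 with DESeq2). Hsd11b1, which regenerates active glucocorticoid in the cell, was at 15.2, 9.58 and 11.9 CPM against 50.5, 92.8 and 123 CPM (-2.86 ± 0.58, adjusted p = 0.0909 in edgeR and 6.66e-05 with DESeq2). For Hilpda, G0s2, Klf5 and Hsd11b1 the groups did not overlap.

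The others were Acsl3 (-2.22), a ligase of the droplet surface, Elovl5 (-2.45), an elongase of polyunsaturated chains, Agpat2 (-2.61), an acyltransferase of triglyceride synthesis, Hadhb (-2.34), a subunit of the mitochondrial trifunctional protein, Rbp4 (-2.64), a retinol carrier, and Gpihbp1 (-4.19). Gpihbp1 alone of the 10 overlapped, since muscle replicate 1 was at 0.478 CPM.

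The most abundant of these other genes by role showed smaller differences. Klf4 was at 450 to 534 against 738 to 1157 CPM (-1.01 ± 0.29) and Ebf1 at 148 to 255 against 201 to 282 CPM (-0.34 ± 0.38). Npc2, a lysosomal cholesterol carrier, was at 76.9 to 134 against 127 to 138 CPM (-0.28). Cav1, the caveolin of caveolae that cover fat cells, was at 139, 12.5 and 7.36 CPM in circulating and 123 to 214 CPM in muscle libraries. Its log2 fold change was -1.59 (adjusted p = 0.356 in edgeR) and -4.07 without circulating replicate 1 (adjusted p = 0.0286). Cavin1, a coat protein of caveolae, was at 517 to 753 against 417 to 603 CPM (0.32).

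Fads1 (-0.75), Tecr (0.11), Cyp51 (-0.55), Sc5d (1.19), Acadm (0.87), Cpt1a (-1.49) and Nampt (-0.01) did not pass in edgeR, DESeq2 or limma-voom. Nampt was at 169 CPM in circulating replicate 2 against 37.4 and 11 CPM in the other circulating libraries, the library with high Apoe.

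**Figure D5:**
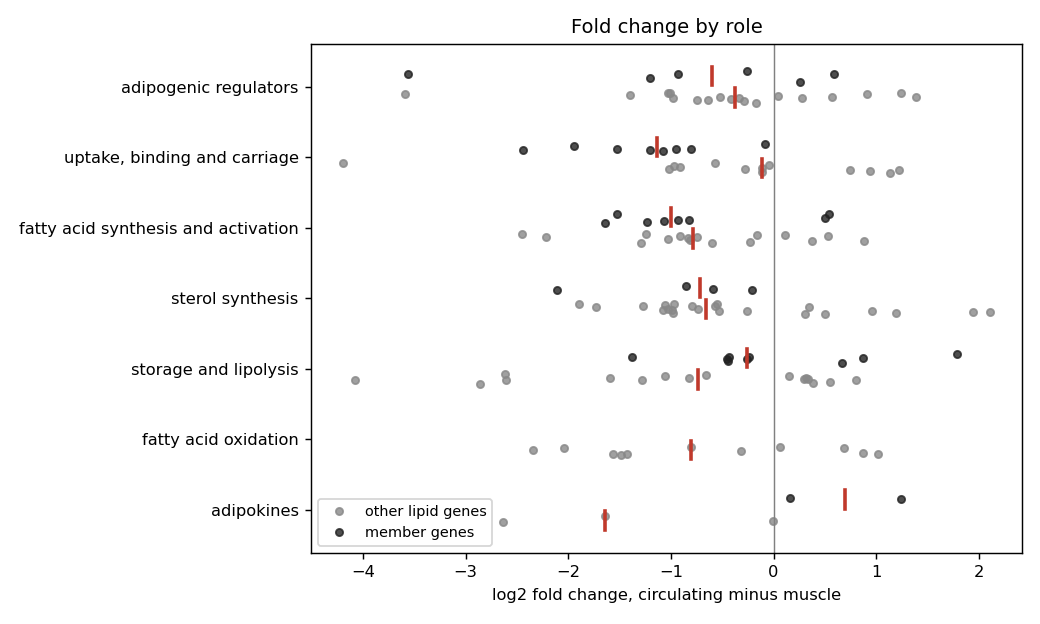
Log2 fold change (circulating minus muscle, edgeR with TMM scaling) of the 37 listed genes, black, and the 99 other lipid genes, grey, by role; red bars are medians, and vertical jitter within a row carries no value. The medians of uptake genes (-1.14 and -0.11) and of storage genes (-0.26 and -0.74) differ between the listed and the other genes.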

How the data were processed

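RNA-seq counts were used from 3 circulating and 3 muscle FAP libraries. The authors deposited raw counts of reads per gene symbol. The tools named in the submitters' processing notes are featureCounts, STAR and Trim Galore, with build GRCm39. Their versions, strand setting and annotation are not given in the sources used here. Per the labels, libraries were made with a transposase-based DNA kit.

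Counts were analysed in R 4.3.3 by edgeR 4.0.16 with its quasi-likelihood test (robust, TMM scaling, default filterByExpr, 20248 of 33276 genes left), with Benjamini-Hochberg adjustment over all tested genes and a threshold of 0.05. DESeq2 1.42.0 and limma-voom (limma 3.58.1), other scalings and filters, a replicate block and leaving out each library were alternatives. Each standard error was derived from the coefficient and its F value. CPM are per 1000000 of the TMM-scaled library. The fit was also run on simulated counts drawn with the TMM-scaled library sizes, so that run could not test the choice of scaling. Exon lengths came from GENCODE M21 (GRCm38) by symbol, for 91.4% of symbols and all 38 members, and Pref1 was matched to Dlk1 through RefSeq synonyms.

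Named were all 38 members, in full those past the threshold in edgeR or DESeq2, those without overlap whose higher group averaged 20 CPM or more, and the 2 most abundant of each role, and of the other pathway genes the 2 most abundant of each role, of which 1 is not reported here. The members and lists were chosen with earlier results of these data known. Replicates differed beyond sampling noise (chi-square per degree of freedom 56.1 to 85.4). Whether each library is a separate mouse is not stated, and the p-values reflect only how these libraries vary, which may be technical. Without a known strand setting, reads of a gene and an antisense neighbour cannot be told apart. Exons on the opposite strand cover 20.7% of the exon length of Cebpb (Tmem189), 15.6% of Lipe and 15.0% of Cebpd (Spidr). They cover 13.0% of Gpd1 and 12.1% of Hmgcs1. Acsl1, Fabp3, Cebpa, Srebf1 and Plin4 had smaller overlaps, each with 1 neighbour covering at most 9.9%.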

Additional observations from a re-analysis of the deposited data

How the results depend on the processing

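Of 17 alternatives, the numbers of genes lower and higher over all tested genes (21 and 1) became 42 and 1 with RLE size factors, 1 and 1 with upper quartile scaling, 28 and 2 with library size only, 4 and 3 with scaling on abundant genes, 154 and 6 with no low-count filter, 1078 and 204 with DESeq2 and 89 and 2 with limma-voom. Leaving out 1 library gave 0 to 63 lower and 0 to 2 higher, the most without circulating replicate 1. Of the listed genes, the 1 called lower became 0 with upper quartile scaling and with scaling on abundant genes, 2 with no low-count filter and 5 with DESeq2, and 0 to 1 when a library was left out. Of the other pathway genes 3 were lower with no low-count filter, 10 with DESeq2, 2 with limma-voom and 0 to 1 when a library was left out. The median log2 fold change of the listed genes, -0.80, was -0.90 with RLE size factors, -0.09 with upper quartile scaling, -0.54 with library size only, -0.05 with scaling on abundant genes, -1.03 with no low-count filter, -0.71 with at least 1 CPM in at least 3 samples, -0.90 with DESeq2, -0.58 with limma-voom and -0.76 to -0.64 when a library was left out. The cause was not tested, except that scaling on abundant genes and upper quartile scaling move all genes by 0.70 and 0.67.

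The groups share replicate numbers, but same-numbered libraries did not deviate together (correlations of 0.00812, 0.0410 and 0.00584), and not every circulating library correlated best with its own number. With the replicate block 1 gene was lower and 0 higher over all genes, 0 of the listed genes passed (Lpl -2.44, adjusted p = 0.0801 in edgeR), and their median was -0.63.

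None of the 51 log2 fold changes that turned sign belonged to a gene past the threshold in edgeR. They were, by setting: upper quartile (Cebpb 0.42, Lrp1 0.63, Insig1 0.09, Sqle 0.53, Plin1 0.21, Plin3 0.44, Dgat2 0.47, Lipe 0.22, Pnpla2 0.26, Cyp51 0.17, Ebf1 0.35, Nampt 0.76, Npc2 0.41), scaling on abundant genes (Cebpb 0.46, Lrp1 0.68, Insig1 0.10, Sqle 0.58, Plin1 0.23, Plin3 0.46, Dgat2 0.48, Lipe 0.26, Pnpla2 0.30, Cyp51 0.19, Ebf1 0.39, Nampt 0.83, Npc2 0.44), library size only (Lrp1 0.15, Sqle 0.13, Nampt 0.43), at least 1 CPM in at least 3 samples (Lrp1 0.01, Nampt 0.09), no low-count filter (Lep -0.08, Tecr -0.12), limma-voom (Lep -0.49), with replicate block (Lep -0.24). When a library was left out the ranges, with the values that turned, were Pparg -1.70 to 0.34 (0.34 without muscle replicate 3), Lrp1 -0.43 to 0.09 (0.09 without circulating replicate 1), Fabp4 -2.78 to 0.11 (0.11 without muscle replicate 2), Acaca -0.27 to 0.71 (-0.27 without circulating replicate 3), Acsl1 -0.40 to 0.98 (-0.40 without circulating replicate 2), Dgat2 -0.89 to 0.17 (0.05 without circulating replicate 2, 0.17 without muscle replicate 3), Lep -0.76 to 0.65 (-0.76 without circulating replicate 1, -0.04 without circulating replicate 2, -0.15 without muscle replicate 2, -0.06 without muscle replicate 3), Nampt -1.69 to 0.40 (0.24 without circulating replicate 1, 0.40 without circulating replicate 3, 0.07 without muscle replicate 3), Tecr -0.44 to 0.32 (-0.44 without circulating replicate 2, -0.24 without muscle replicate 2). Depth limits Fabp3, Gpd1, Plin1, Adipoq and Lep, where no library exceeded 29 reads.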
